A study of Homo sapiens with 6 samples.

Results

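The levels of 10 genes of cell growth were followed through the lyophilization of a human B-cell line: MYC, its partner MAX, and 8 nucleolar and growth genes known as MYC targets (NCL, NPM1, FBL, NOP56, NOP58, DKC1, ODC1 and CAD). They were taken by symbol from the FPKM tables and are 10 of the 23284 symbols listed there. All 10 were above 0 in all 6 samples and all 10 passed the filter on low values (mean FPKM above 1 in at least 1 group), which left 11134 genes for testing. FPKM are fragments per kilobase of transcript, scaled to the mapped reads of a sample, so levels of different genes are given per length. The samples were 3 controls and 3 lyophilized samples of GM12873, a B-lymphoblastoid cell line, that is, B cells immortalized with Epstein-Barr virus. Every sample started from the same number of cells, which had grown in RPMI-1640 with serum and were washed in PBS. Control cells went straight into trizol without lyophilization or trehalose. The lyophilized cells were dried in 0.1 M trehalose and kept for 2 weeks at room temperature before trizol was added, so that drying, trehalose and storage cannot be told apart. The labels tie each lyophilized sample to 1 control, and samples with the same number are called pair 1, 2 and 3 here. The study is limited to a single cell line, and the labels do not say whether the samples came from separate cultures. The p-values therefore measure the spread between these samples, which may be technical.

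MYC is a transcription factor that binds DNA as a dimer with MAX, best at E-box motifs with the letters CACGTG, and its activity raises the output of ribosomes and of building blocks for growth. In lymphoblastoid lines MYC is known to be driven by the virus. Nucleolin (NCL) and nucleophosmin (NPM1) are abundant nucleolar proteins that act in rRNA transcription and ribosome assembly. Fibrillarin (FBL), NOP56 and NOP58 are core proteins of the box C/D small nucleolar ribonucleoproteins (snoRNPs), which methylate rRNA, with fibrillarin as the methyltransferase. Dyskerin (DKC1) is the pseudouridine synthase of the box H/ACA snoRNPs and a part of telomerase. ODC1 makes putrescine at the first step of polyamine synthesis, and CAD carries out the first steps of pyrimidine synthesis.

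The letters CACGTG, which read the same on both strands, were searched within 1000 bases on either side of the canonical transcript start of each gene on GRCh37, the build of the files. MYC was not searched. All 9 members searched held the letters, with 22 matches in all, of which 13 lay in an intron, 4 in an exon and 5 upstream of the start. Of the 10368 tested genes searched in the same way, 32.8% held them. The members searched, other than MAX, had been named as targets of MYC, so this share is a description of the genes chosen. The match nearest to the start is shown for 7 of them because it is the motif that MYC and MAX are known to bind. Each window has 30 bases in the 5′ to 3′ direction of the gene, and the capitals mark the E-box.
CAD: cgcgccgttagcCACGTGgaccgactccgg
FBL: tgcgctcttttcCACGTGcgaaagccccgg
ODC1: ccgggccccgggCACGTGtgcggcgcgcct
NOP58: tgttacgtgtaaCACGTGgccccgccgttt
NCL: cgactcctgacgCACGTGcccgggagcgcg
DKC1: ctctgccatagcCACGTGgtgaaccggaag
NPM1: aaccgctgggagCACGTGgttgccacgtgg

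Positions of the motif count from 1 at the first base of the canonical GENCODE transcript, which in CAD, NOP58 and other genes is not the first base of the span that the deposited tables give for the gene. In CAD it began at base 83, in exon 1 (window chr2:27440307-27440336, plus strand). In FBL it began at base 7, also in exon 1 (chr19:40336996-40337025, minus strand). The other 5 shown lay in intron 1. They began at base 287 in ODC1 (chr2:10588150-10588179, minus strand), at base 391 in NOP58 (chr2:203130864-203130893, plus strand) and at base 472 in NCL (chr2:232328707-232328736, minus strand). In DKC1 the motif began at base 663 (chrX:153991789-153991818, plus strand) and in NPM1 at base 726 (chr5:170815566-170815595, plus strand). The NPM1 window holds the same letters again near its 3′ end. In the narrower promoters of RefSeq on GRCh38.p14, from 250 bases before to 50 after the start, 2 of the 8 members listed held the letters (FBL and ODC1), beside 8.77% of 27305 genes.

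The cells carried the marker genes of B cells in every sample. All 8 B-cell markers were above 1 FPKM, with sums of 3030 to 4015 FPKM in a control and 2773 to 3729 FPKM in a lyophilized sample. Most of each sum came from CD74, at 2159 to 2864 FPKM in a control and 1884 to 2552 FPKM in a lyophilized sample. None of the 5 T-cell markers found was above 1 FPKM, and their sum was at most 0.379 FPKM in a control and 0.308 FPKM in a lyophilized sample. Of 7 myeloid markers only ITGAM and S100A9 were above 1 FPKM, LYZ being listed at 0 in all but 1 sample, and the sum ran from 5.01 to 7.86 FPKM. Of 6 erythroid and platelet markers none was above 1 FPKM, and HBB, PF4 and PPBP were listed at 0 in all samples. Pair 1 stood apart in both groups. The 100 most abundant genes took 41.2% of the FPKM in control 1 and 41.4% in lyophilized sample 1, but 34.7% to 36.8% in the other 4 samples. The FPKM of a sample summed to between 468790 and 524744, and as the tables hold no read counts, the depth behind each value cannot be taken from them. The study lists the fewest raw reads for control 1. Control 1 also had the most records at 0 FPKM, 8987, against 8213 to 8647 in the other samples.

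The 10 genes spanned a wide range of levels. In the controls NPM1 was the highest at 348.5 ± 74.3 FPKM (SD, n = 3), followed by FBL at 306 ± 18.4 and NCL at 296 ± 117 FPKM. ODC1 was at 184.5 ± 40.6, MYC at 109 ± 13.1 and NOP56 at 98.95 ± 28.35 FPKM. The lower end held NOP58 (48.4 ± 16.1 FPKM), DKC1 (41.5 ± 9.3 FPKM), MAX (37.6 ± 0.831 FPKM) and CAD (23.2 ± 5.62 FPKM). Neighbours in this order did not overlap between ODC1 and MYC, between NOP56 and NOP58, and between MAX and CAD; the other neighbours overlapped in their ranges and their order is not settled. By control mean NPM1 ranked 175 among the 11134 tested genes and CAD 2997, so that all 10 lay in the upper part of the list.

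**Figure D1:**
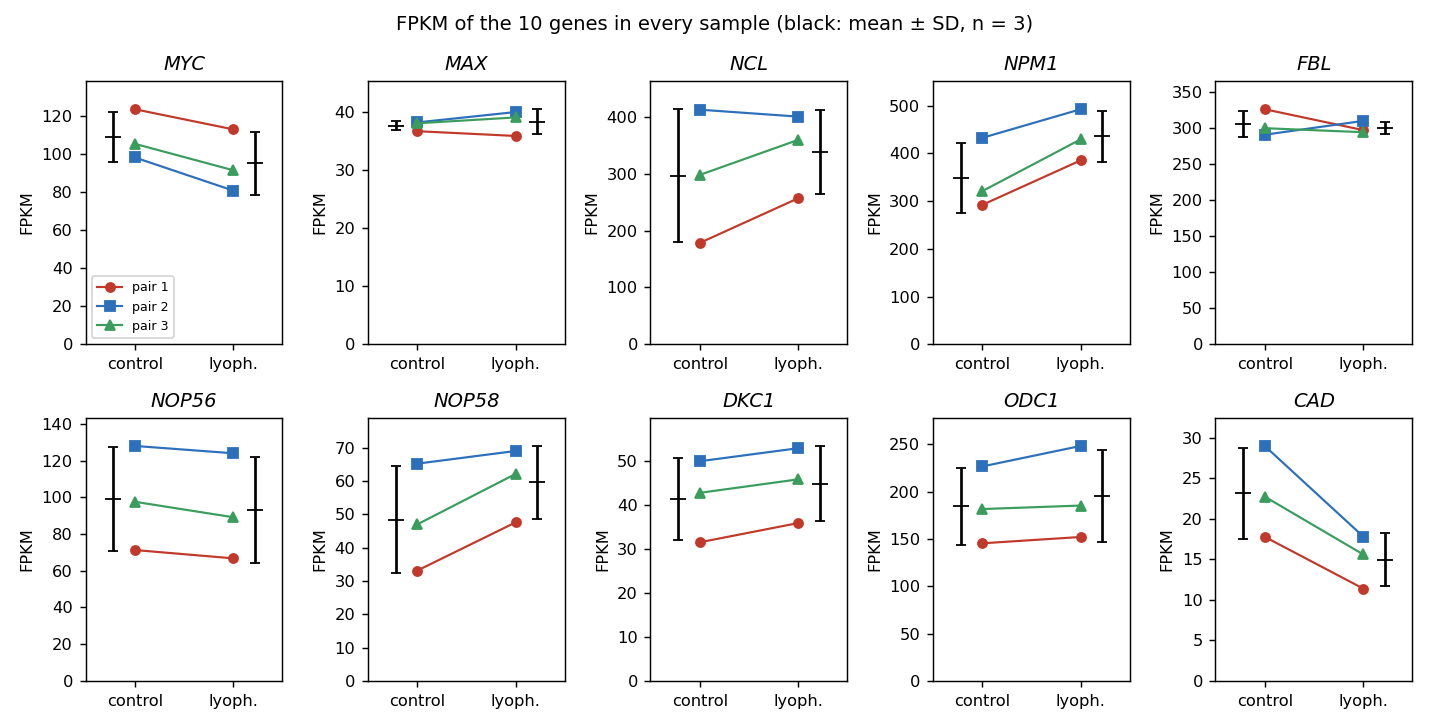
FPKM of the 10 genes in the control and the lyophilized sample of each pair, with an axis of its own from 0 for each gene. Lines join the samples of a pair, and black marks give the mean ± SD of 3 samples. Groups overlap for all 10 genes, and pair 1 (red circles) is lowest in both groups for 8 of them and highest for MYC.

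The first comparison asked whether these transcripts keep their level through drying and storage. In limma on log2(FPKM + 0.1), without the pairing, none of the 10 members passed an adjusted p of 0.05. Of all tested genes 64 (0.575%) did, with 62 lower after lyophilization (0.557%) and 2 higher (0.018%). At an unadjusted p under 0.05 limma gave 1 of the 10 members, CAD, beside 1573 of the 11134 tested genes. The samples of the groups overlapped for all 10 members, whereas 12.6% of tested genes were lower and 9.66% higher in all lyophilized samples than in all controls. With the pair number as a block, 5 members passed the threshold among 3423 genes (30.7%). MYC and CAD were lower, as were 14.9% of tested genes, and NCL, NPM1 and NOP58 were higher, as were 15.9%. Dividing each sample by its FPKM total turned the split of all genes under the block from 1657 lower and 1766 higher to 2168 lower and 649 higher, with MYC, NOP56 and CAD lower and NPM1 higher among the members. Another fit had the block and a loess correction of each sample for the GC content of the transcript, and called 3 members of 1934 genes in 10763 (18%). MYC and CAD were lower again, beside 7.93% of genes, and FBL was higher, beside 10% of genes.

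Over the 10 members the median log2 fold change was 0.050, with 6 above 0 and 4 below, and over all tested genes it was 0.039, with 56.3% above 0. The members' median became -0.019 when samples were divided by their total and -0.005 after quantile normalization. Within the pairs, NPM1, NOP58, DKC1 and ODC1 were higher after lyophilization in each of the 3 pairs, a pattern that 33.4% of tested genes had. MYC, NOP56 and CAD were lower in all 3 pairs, as were 28.8% of genes.

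**Figure D2:**
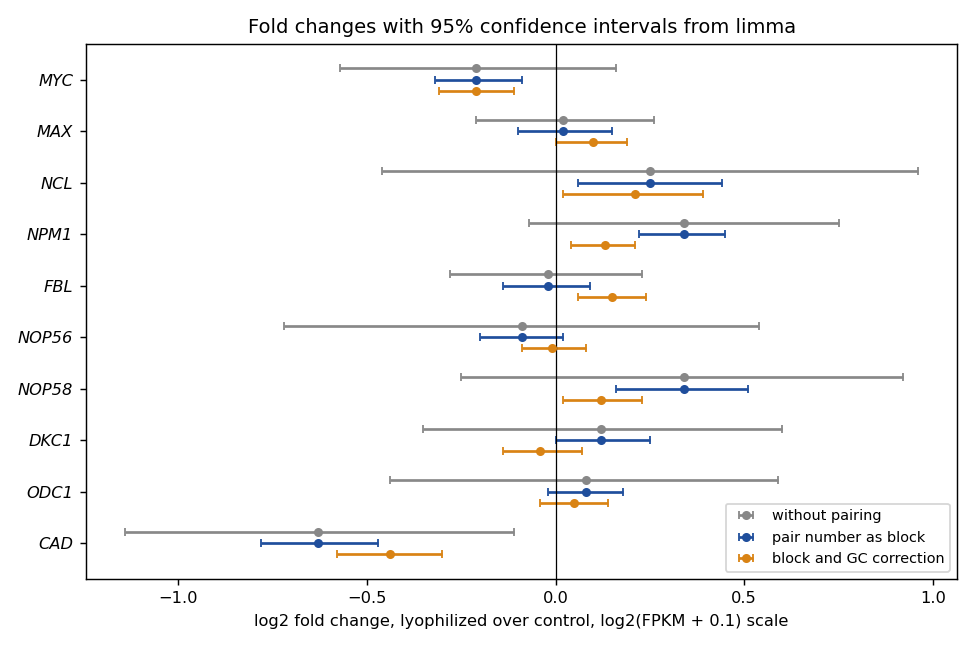
Log2 fold changes, lyophilized over control, of the 10 genes on the log2(FPKM + 0.1) scale with 95% confidence intervals from limma over 6 samples, without the pairing (grey), with the pair number as a block (blue) and with the block and the GC correction (orange). CAD lies at -0.63 with and without the block, and its interval stays below 0 in all 3 fits.

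MYC lies on chromosome 8 (hg19, chr8:128748315-128753680, plus strand). Its level was 124, 98.3 and 105.5 FPKM in controls 1 to 3, against 113, 80.9 and 91.6 FPKM in their lyophilized partners. The lyophilized sample was the lower in each pair, by a change of -8.61%, -17.8% and -13.2%, yet lyophilized sample 1 was above controls 2 and 3. The control mean was 109 ± 13.1 FPKM and the lyophilized mean 95.2 ± 16.4 FPKM (SD, n = 3). The log2 fold change was -0.21 ± 0.16 (SE) without the pairing, with a limma adjusted p of 0.563. It was -0.11 without control 1, -0.34 without lyophilized sample 1 and -0.09 without lyophilized sample 2, at an adjusted p of 0.406 or more in each. With the block the SE was 0.05 and the adjusted p 0.0151, and with the GC correction the fold change was again -0.21 and the adjusted p 0.0123. Without pair 3 the blocked call was lost, at an adjusted p of 0.102. In bulk RNA, fewer cells with the transcript and less of it per cell cannot be told apart. Among 639 genes within 1 point of its GC content of 48.78%, 10% had a lower fold change than MYC.

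MAX, the dimer partner (chr14:65472892-65569227, minus strand), had the smallest spread of the 10 among the controls. It was at 36.7, 38.2 and 38.0 FPKM in controls 1 to 3, against 35.8, 40.0 and 39.0 FPKM in their lyophilized partners. The groups overlapped and the pairs disagreed in direction, with 2 higher and 1 lower. Its log2 fold change was 0.02, with an interval from -0.10 to 0.15 under the block (limma adjusted p 0.767), and it turned to -0.04 when samples were divided by their total. The ratio of MYC to MAX was 3.37, 2.58 and 2.77 in controls 1 to 3, against 3.15, 2.02 and 2.35 in their lyophilized partners. The ratio was lower in the lyophilized sample of each pair, but the unpaired test, whose spread includes that between the pairs, did not pass (exact two-sided permutation test of 3 against 3, p = 0.4, where 0.1 is the smallest p possible). MAX shares exon bases with genes on the other strand, FNTB among them, and the library kit does not mark strand, so reads of these genes could not be told apart there. The same holds for MYC, which shares 194 exon bases with CASC11, and for NOP58, which shares 274 with an unnamed gene.

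NCL (chr2:232319459-232329205, minus strand) had the widest spread among the controls, with a coefficient of variation of 39.6%. It was at 178, 413 and 298 FPKM in controls 1 to 3, against 257, 400.5 and 359.6 FPKM in their lyophilized partners. Control 1 was the lowest of the 6 samples and control 2 the highest, so the controls spanned all lyophilized values. The change within pairs was 44.2%, -2.95% and 20.7%. The log2 fold change was 0.25 ± 0.31 (SE) without the pairing (limma adjusted p 0.73) and passed narrowly with the block, at an adjusted p of 0.0496. It did not pass with the GC correction (0.111), without pair 1 (0.199), or under the block after division by the total (0.18) or quantile normalization (0.239). The blocked fit did call it after median centring (0.0287), without pair 2 (0.000105) and without pair 3 (0.0232). With a pair left out few degrees of freedom remain. Without control 1 the unpaired fold change turned to -0.07.

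NPM1 (chr5:170814708-170837888, plus strand) was at 292, 433 and 321 FPKM in controls 1 to 3, against 385.5, 493 and 429.6 FPKM in their lyophilized partners. It was higher in the lyophilized sample of every pair, by 32.0%, 13.9% and 33.9%, although control 2 was above lyophilized samples 1 and 3. Without the pairing its log2 fold change was 0.34 ± 0.18 (SE; limma adjusted p 0.421). With the block it passed at 0.00241, and it also passed with each pair left out and under all 3 scalings. With a pair left out few degrees of freedom remain, and the p-values rest largely on the variances of other genes. With the GC correction the fold change was 0.13 and the adjusted p 0.0523. The annotation names 49 pseudogenes of NPM1, beside 3 of NOP56 and 2 of NCL. The authors report keeping reads with a single genomic position. How reads shared with a pseudogene entered these levels was not tested. The control mean of the ratio of NCL to NPM1 was 0.83 ± 0.19 and the lyophilized mean 0.77 ± 0.09 (exact permutation test, p = 0.6).

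The transcripts of FBL, NOP56 and NOP58, core proteins of the box C/D snoRNP, gave a different picture each. FBL (chr19:40325093-40337054, minus strand), the methyltransferase, was at 326, 291 and 299.9 FPKM in controls 1 to 3, against 297, 310.0 and 294 FPKM in their lyophilized partners, all within a narrow band. Its log2 fold change was -0.02, with an interval from -0.14 to 0.09 under the block (limma adjusted p 0.742). With the GC correction it became 0.15 and passed, at an adjusted p of 0.034.

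NOP56 (chr20:2633178-2639039, plus strand) was at 71.3, 128 and 97.6 FPKM in controls 1 to 3, against 66.8, 124 and 89.15 FPKM in their lyophilized partners. The values of a pair lay close together, while pairs 1 and 2 lay far apart. Its log2 fold change was -0.09 (limma adjusted p 0.901, and 0.169 with the block). Divided by the total, the blocked fit called it lower.

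NOP58 (chr2:203130515-203168384, plus strand), the partner of NOP56 in the particle, was at 33.1, 65.2 and 46.95 FPKM in controls 1 to 3, against 47.6, 69.0 and 62.1 FPKM in their lyophilized partners. It was higher in the lyophilized sample of every pair, by 43.8%, 5.84% and 32.3%, and the groups overlapped. The log2 fold change was 0.34 ± 0.25 (SE) without the pairing (limma adjusted p 0.554) and passed with the block at 0.0132. Without the pairing it was 0.09 without control 1, 0.58 without control 2 and 0.22 without lyophilized sample 2. It did not pass with the GC correction (0.12, adjusted p 0.103) or under the block after division by the total (0.0538). The blocked fit did call it after median centring (0.00495) and quantile normalization (0.0209). The same held without pair 1 (0.0201), pair 2 (5.12e-05) or pair 3 (0.0241), where few degrees of freedom remain. The ratio of NOP56 to NOP58 was 2.15, 1.96 and 2.08 in controls 1 to 3, against 1.40, 1.80 and 1.44 in their lyophilized partners, without overlap. The exact permutation test gave p = 0.1, the smallest that 3 against 3 samples allow, so this test could not reach 0.05. The transcripts differ in GC content, at 51.7% for NOP56 and 40.92% for NOP58, and the part of this in the ratio was not tested.

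DKC1 (chrX:153991031-154005964, plus strand) was at 31.6, 50.01 and 42.8 FPKM in controls 1 to 3, against 35.9, 53.0 and 45.9 FPKM in their lyophilized partners. Each pair kept its place in both groups, and the lyophilized sample was higher by 13.9%, 5.94% and 7.17%. A log2 fold change of 0.12 did not pass the threshold with the block (interval -0.00 to 0.25, limma adjusted p 0.113), and it turned to -0.04 with the GC correction.

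ODC1 (chr2:10580508-10588453, minus strand) was at 145, 227 and 182 FPKM in controls 1 to 3, against 152, 248 and 185 FPKM in their lyophilized partners. The changes within pairs were small, at 4.61%, 9.61% and 2.03%, beside the spread between pairs. Its log2 fold change was 0.08 with an interval from -0.02 to 0.18 under the block (limma adjusted p 0.214), and it turned to -0.02 after quantile normalization.

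CAD (chr2:27440258-27466654, plus strand) had the largest change of the 10. It was at 17.8, 29.0 and 22.7 FPKM in controls 1 to 3, against 11.4, 17.8 and 15.6 FPKM in their lyophilized partners. In each pair the lyophilized sample was lower, by a change of -35.9%, -38.5% and -31.4%, but lyophilized sample 2 stood level with control 1, so the groups overlapped. The means were 23.2 ± 5.62 and 14.9 ± 3.26 FPKM (SD, n = 3). The log2 fold change was -0.63 ± 0.22 (SE) without the pairing, where the limma adjusted p of 0.265 did not pass. With the block the SE was 0.07 and the adjusted p 0.000547, and the call held with each pair left out and under all 3 scalings. The fits with a pair left out have few degrees of freedom, so their p-values rest largely on the variances of other genes. The GC correction reduced the fold change to -0.44 (adjusted p 0.00318). CAD has the highest GC content of the members, 57.75%, and 5.14% of 700 genes within 1 point of it had a lower fold change.

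The fold changes followed the GC content of the transcripts. Over the 10 members Spearman's rho between GC content and log2 fold change was -0.89, and over the 10763 genes with a transcript it was -0.76. The points share the same 6 libraries, and these values are descriptions across genes, which are not independent replicates. All 3 pairs had a negative rho over all genes, at -0.73, -0.42 and -0.77, and over the members, at -0.89, -0.50 and -0.87. NOP58 and NPM1, at 40.92% and 41.01% GC, had fold changes of 0.34 each, where the median of their neighbours in GC content was 0.22 for both. NCL, at 46.71%, stood above 94.1% of 762 neighbours. After the correction rho was 0.04 over all genes and -0.35 over the members. Whether GC content has a part in the changes of single members was not tested beyond these values.

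**Figure D3:**
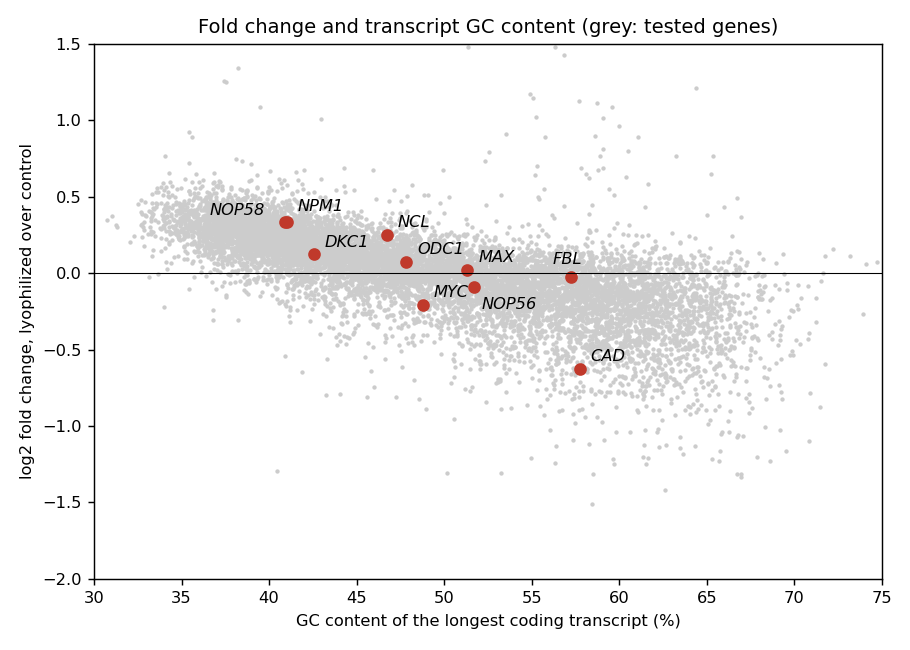
Log2 fold change, lyophilized over control, without the pairing, against the GC content of the longest coding transcript, for the tested genes (grey) and the 10 members (red). The cloud falls from left to right, with NOP58 and NPM1 near 41% GC at 0.34 and CAD near 58% GC at -0.63; 9 of 10763 genes lie outside the axes.

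A second comparison asked how far the pairs differed from each other. In limma with the condition as a covariate, an F test of the 3 pair numbers passed for 8 members, all but MAX and FBL, and for 5036 of the tested genes (45.2%). The adjusted p of this test was 3.76e-05 for NOP56, 7.51e-05 for ODC1, 0.00032 for DKC1 and 0.000347 for NCL. It was 0.000592 for CAD, 0.000722 for NOP58, 0.000994 for NPM1 and 0.00166 for MYC. MAX gave 0.375 and FBL 0.599. With the GC correction the same 8 members passed, beside 5570 of 10763 genes (51.8%). With a group mean above 5 FPKM required, the same 8 passed, beside 4336 of 8134 genes (53.3%). Without pair 1, which stood apart in its share of abundant genes, 6 members passed (NCL, NPM1, NOP56, NOP58, ODC1 and CAD) among 1573 genes (14.1%), while MYC (0.23) and DKC1 (0.0704) did not.

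MYC and 8 of the other members stood in opposite orders across the pairs. MYC was highest in pair 1 and lowest in pair 2 in both groups, at 0.795 times the level of control 1 in control 2 and 0.715 times that of lyophilized sample 1 in lyophilized sample 2. NCL was 2.32-fold higher in control 2 than in control 1 and 1.56-fold higher in lyophilized sample 2 than in lyophilized sample 1. NOP56 was 1.79-fold and 1.86-fold higher, NOP58 1.97-fold and 1.45-fold, and CAD 1.63-fold and 1.56-fold. ODC1, DKC1 and NPM1 had ratios of 1.56 and 1.63, 1.58 and 1.47, and 1.48 and 1.28. For all of these and for MAX the level ran from pair 1 through pair 3 to pair 2 in both groups. In MAX the limma F test did not pass (adjusted p 0.375), and controls 2 and 3 were close, at 38.2 and 38.0 FPKM. That order was chosen after the values were seen, and 20.1% of the tested genes had it. The opposite order, that of MYC, was found in 11% of tested genes. Pair 1 was lowest in both groups for 42.9% of all genes and highest for 21.5%. The 10 genes together took 0.247% and 0.267% of the FPKM in the samples of pair 1 and 0.31% to 0.377% in the others, and a part of the abundant genes of pair 1 in this was not tested. After division by the sample total 9 members passed the F test, MAX being added, beside 5749 of the tested genes (51.6%).

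**Figure D4:**
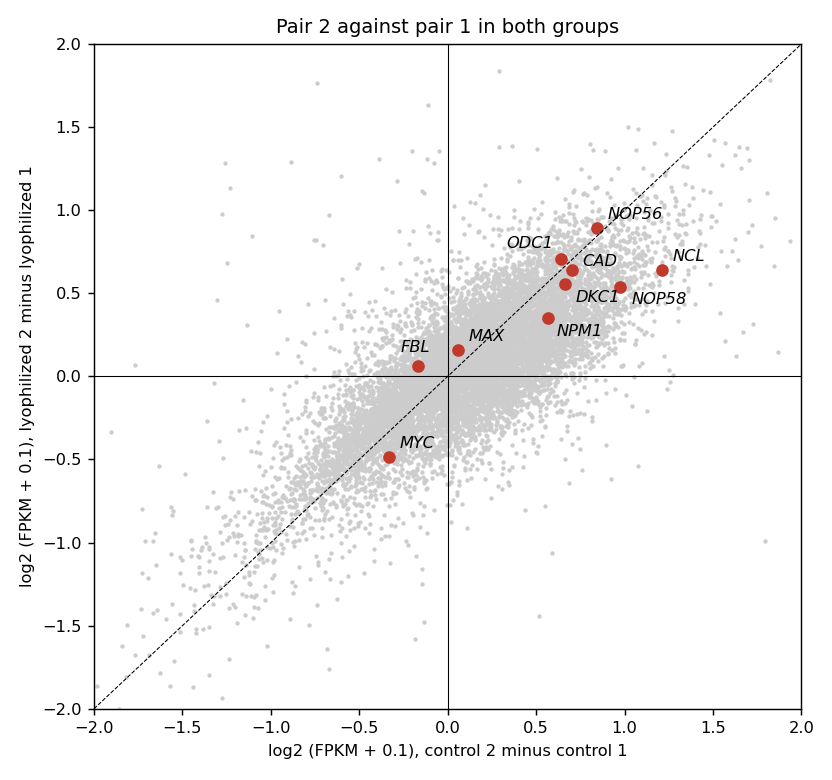
Difference between pair 2 and pair 1 in log2(FPKM + 0.1), in the controls (horizontal) and in the lyophilized samples (vertical), for the tested genes (grey) and the 10 members (red). NCL, NOP58, NOP56, CAD, DKC1, ODC1 and NPM1 lie above 0 in both groups and MYC lies below 0 in both; 38 of 11134 genes lie outside the axes.

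Across the 6 samples the levels of 7 members ran against that of MYC. Pearson's r with MYC on the log2 scale was -0.93 for DKC1, -0.92 for MAX, -0.91 for NOP58, -0.89 for ODC1, -0.88 for NCL and for NPM1, and -0.76 for NOP56. It was -0.17 for CAD and 0.35 for FBL. An r below -0.7, a limit chosen after the values were seen, was reached by these 7 of 9 members and by 29.8% of the 11133 tested genes other than MYC. These values describe 6 points that fall into 3 pairs, and no test was made of them. The 5 genes most like MYC over the same samples were EPHB1 (r = 0.997), GPI (0.992), LGALS3BP (0.988), LTBP4 (0.987) and IRF7 (0.986). EPHB1 is an ephrin receptor, GPI an enzyme of glycolysis, and IRF7 a transcription factor of the interferon response. GPI, for example, was at 225, 189.7 and 205 FPKM in controls 1 to 3, against 213, 173.5 and 186 FPKM in their lyophilized partners, highest in pair 1 as MYC was. An r above 0.9 with MYC was reached by 393 of 11133 genes (3.53%).

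The other genes of the pathways were taken from 7 lists. Of their 98 tested genes none passed in limma without the pairing. At an unadjusted p under 0.05 in limma there were 7, beside 1573 of the 11134 tested genes. With the block 11 were lower and 16 higher, 27.6% of the 98 beside 30.7% of all genes, and their median log2 fold change was 0.07. Divided by the sample total, the blocked fit had 14 of them lower and 2 higher, so the excess of higher genes did not hold under that scaling. With the GC correction 8 were lower and 13 higher. The pair numbers differed for 74 of the 98 (75.5%, beside 45.2% of all tested genes), and pair 1 was lowest in both groups for 70 (71.4%, beside 42.9%). Among all 8134 genes with a group mean above 5 FPKM the pair numbers differed for 53.3%. Without pair 1 the F test passed for 32 of the 98, without a filter on low values for 43 and without the variance trend for 54.

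**Figure D5:**
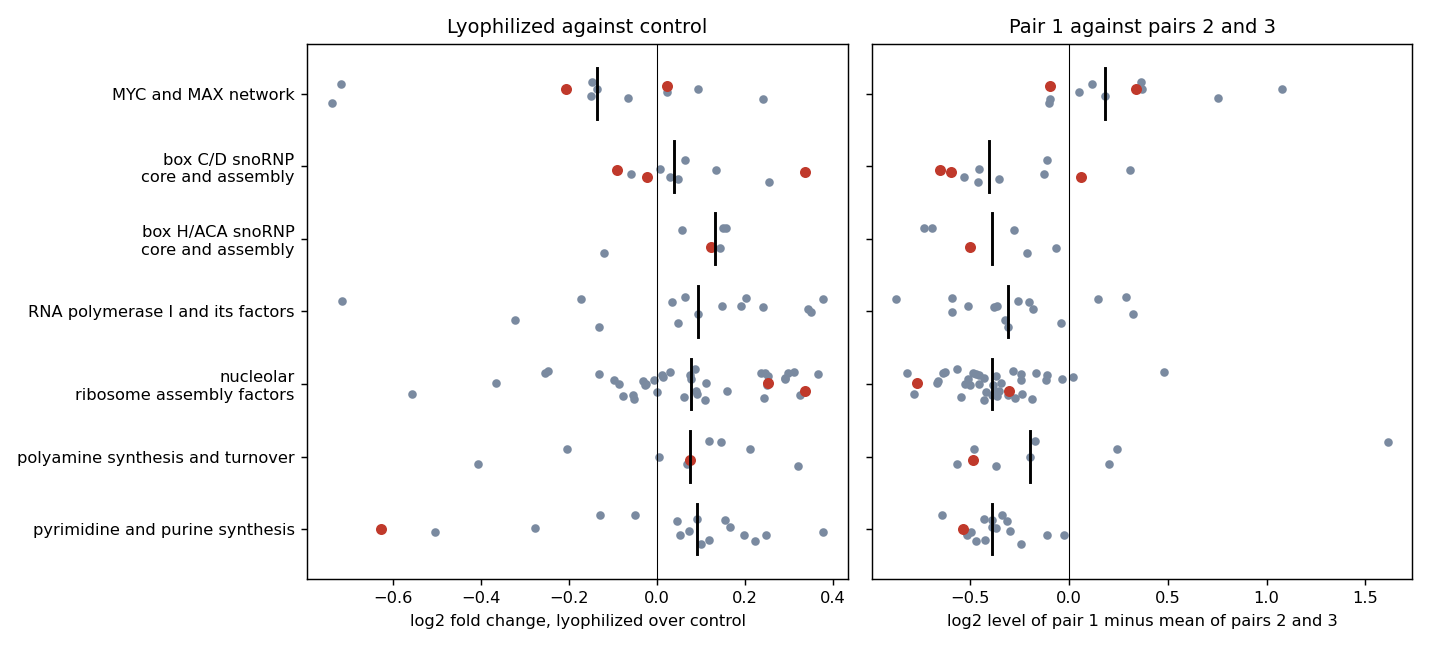
Log2 fold change, lyophilized over control, without the pairing (left) and log2 level of pair 1 minus the mean of pairs 2 and 3, averaged over both groups (right), for each tested gene of the 7 lists. Members are red, the other list genes grey, and black bars mark the median of a list with its members. Medians lie near 0 on the left, between -0.14 and 0.13. Pair 1 was lowest in both groups for 33 of the 38 other nucleolar assembly genes, beside 42.9% of all tested genes.

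Among the 9 other tested genes of the MYC and MAX network, 2 were lower with the block and none higher, also at an unadjusted p under 0.05 in limma. By adjusted p with the block, 14.9% of all tested genes were lower and 15.9% higher. MLXIP, a glucose-sensing relative of MYC, had a log2 fold change of -0.74 (limma adjusted p 0.0117 with the block). It was low throughout, at 1.47, 1.27 and 1.81 FPKM in controls 1 to 3, against 0.791, 0.853 and 0.944 FPKM in their lyophilized partners, which lay below all controls. MNT, a repressor that competes for MAX, was at 3.11, 2.77 and 3.59 FPKM in controls 1 to 3, against 2.11, 1.49 and 2.07 FPKM in their lyophilized partners (-0.72, adjusted p 0.00455). Both also passed with the GC correction. In this list pair 1 was lowest in both groups for none of the 9 and highest for 4, beside 42.9% and 21.5% of tested genes.

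Few of the snoRNP partners of the members passed the test. None of the 7 other box C/D genes passed in limma with the block, nor had any an unadjusted p under 0.05. With the GC correction 3 were higher, beside 10% of genes. Of the 5 other box H/ACA genes, 1 was higher with the block, beside 15.9% of tested genes. NOP10, a small core protein bound to dyskerin, was at 235, 249 and 234 FPKM in controls 1 to 3, against 252, 277 and 264 FPKM in their lyophilized partners (0.14, limma adjusted p 0.031 with the block). After the GC correction its fold change was -0.00 (adjusted p 0.966).

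Of the 15 genes of RNA polymerase I and its factors, which transcribe the rRNA genes, 2 were lower and 3 higher with the block. Of all tested genes 14.9% were lower and 15.9% higher. TAF1C, a subunit of the promoter factor SL1, was at 7.21, 8.20 and 8.10 FPKM in controls 1 to 3, against 4.02, 5.88 and 4.47 FPKM in their lyophilized partners (-0.72, limma adjusted p 0.002). POLR1A, the largest subunit, changed by -0.32 (adjusted p 0.0169). TAF1D rose from 36.4, 37 and 31.7 to 49.9, 40.7 and 46.1 FPKM (0.38, adjusted p 0.00777), and the subunit gene TWISTNB had a fold change of 0.35 (adjusted p 0.0303). With the GC correction the lower calls of TAF1C and POLR1A held, and TAF1D and TWISTNB did not pass (0.163 and 0.648).

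The list of nucleolar assembly factors held 38 other tested genes, of which 4 were lower and 8 higher with the block and 33 differed between the pairs. Over all tested genes the shares were 14.9% lower, 15.9% higher and 45.2% different between the pairs. MYBBP1A, a nucleolar repressor of rRNA synthesis, was at 18.9, 24.3 and 20.9 FPKM in controls 1 to 3. Their lyophilized partners were at 13, 16.2 and 14.3 FPKM, all below the controls (log2 fold change -0.56, limma adjusted p 0.000809). TCOF1, or treacle, which binds the rRNA genes with polymerase I, had a fold change of -0.37 (adjusted p 0.00425). The helicase genes DDX21 and DDX18 had fold changes of 0.37 and 0.32 (adjusted p 0.0241 and 0.0154). With the GC correction MYBBP1A passed (-0.32, 0.00705), and TCOF1, DDX21 and DDX18 did not (0.0962, 0.123 and 0.302).

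In polyamine synthesis, where ODC1 did not pass, 1 of the 8 other genes was lower and 1 higher with the block. Of all tested genes 14.9% were lower and 15.9% higher. SRM, spermidine synthase, was at 88.8, 150.4 and 106 FPKM in controls 1 to 3, against 63.3, 121 and 79.3 FPKM in their lyophilized partners (-0.41, limma adjusted p 0.00111). AMD1, which supplies the aminopropyl donor, had a fold change of 0.32 (adjusted p 0.0158). Neither passed with the GC correction. SRM has 63.65% GC and AMD1 39.10%.

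In nucleotide synthesis, beside CAD, 2 of the 16 other genes were lower and 3 higher with the block, and 14 differed between the pairs. The shares of all tested genes were 14.9%, 15.9% and 45.2%. PFAS, an enzyme of purine synthesis, was at 13.95, 21.9 and 18.5 FPKM in controls 1 to 3, against 9.89, 15.0 and 13.3 FPKM in their lyophilized partners (-0.50, limma adjusted p 0.00146), and passed with the GC correction (-0.31, 0.00872). IMPDH1, of guanine nucleotide synthesis, had a fold change of -0.28 (adjusted p 0.0199). PPAT, the first committed enzyme of purine synthesis, and PRPS2 had fold changes of 0.38 and 0.22 (adjusted p 0.02 and 0.0347). The last 3 did not pass with the GC correction.

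Small nucleolar RNA genes lie in the introns of several members, with 3 small RNA records inside NCL, 6 inside NOP56 (MIR1292, a microRNA, among them), 3 inside NOP58, 2 inside DKC1 and 1 inside ODC1. MAX holds 1 record, a microRNA. Poly(A) selection catches such RNAs poorly, and they were removed before testing. Most were listed at or near 0 in most samples. SNORA75 inside NCL was at 0, 13.8 and 28.7 FPKM in controls 1 to 3, against 10.0, 20.7 and 18.6 FPKM in their lyophilized partners. SNORA80B inside ODC1 was at 49.2, 28.3 and 0 FPKM in controls 1 to 3, against 15.4, 63.7 and 19.2 FPKM in their lyophilized partners. SNORA51 inside NOP56, and SNORA36A and SNORA56 inside DKC1, were also above 0 in most samples.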

How the data were processed

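Poly(A)-selected RNA of 3 control and 3 lyophilized samples was sequenced as 75 bp single-end reads. With TopHat 2.0.7 the authors placed these on hg19, keeping reads with a single genomic position, and deposited 1 table of FPKM values per sample, computed with Cufflinks. The Cufflinks version and the gene annotation are not given in the sources used here. FPKM hold no counts, so no interval for counting error was computed.

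Each table held 24934 records of 23284 symbols, and for the 543 symbols with several records the one with the highest mean was kept. After removal of 1622 small RNA symbols, 11134 genes had a group mean above 1 FPKM. On log2(FPKM + 0.1) these were fitted in limma 3.58.1 (R 4.3.3) with a trend of variance on level, and p-values were adjusted by Benjamini-Hochberg over all genes, with a threshold of 0.05. Fold changes are on that scale, which understates changes of low genes. The comparison had the condition only, since the study states no pairing term. Alternatives had the pair number as a block, or the block with a loess correction (span 0.3, degree 2) for GC content, which 10763 genes (96.67%) had from GENCODE on GRCh37. The labels pair samples of the same number, whose deviations from the group means correlated at 0.716, 0.603 and 0.476. In simulated data for lyophilized against control over 11134 genes, the fit without the block recovered 60% of 2-fold and 94% of 4-fold changes, and the fit with it 68% and 97%, with 0% and 3.5% of calls false. That simulation fixed the share of variance between pairs, had no trend with GC content and planted no changes below 2-fold. Its rates therefore apply to that setting and may not hold for the fits to the data. For the difference between pair numbers 75% of 4-fold changes were recovered, with 2.6% of calls false. There the spread between the pairs was counted as noise and only 4-fold changes of 1 pair were planted. These rates too may not hold for the data or for smaller differences.

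The members and lists were chosen with earlier results of these data known. Named from the lists were up to 2 genes per list and direction with the largest fold change among those past the threshold with the block and changed alike in all 3 pairs, besides any past it without the block, and the 5 genes with the highest correlation with MYC. The small nucleolar RNA genes were named outside this rule, after their values were seen. Other alternatives varied the pseudocount, the filter, the scaling, the variance trend, the record per symbol and the samples left out. Ratios were compared with an exact permutation test. Tables, permutation tests and figures were made in Python 3.11.15 with scipy 1.17.1, pandas 2.3.3 and matplotlib 3.10.9. Some sequence windows and a marker gene are not reported here.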

Additional observations from a re-analysis of the deposited data

How the results depend on the processing

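Without the pairing, no member and no other list gene passed under any of the alternatives to the pseudocount, filter, scaling, variance trend and record per symbol. Over all genes the count was 0 without a filter on low values. It was also 0 when any of the 6 samples, pair 2 or pair 3 was left out, and 131 without pair 1, a range of 0 to 131. The block gave 3423 genes, 5 members and 27 other list genes, and with the GC correction 1934, 3 and 21. Added after the data were seen, the block with division by the sample total gave 2817, 4 and 16, with median centring 3674, 5 and 26, and with quantile normalization 3510, 4 and 26. With a pair left out, the block gave 1264 (without pair 3) to 5359 (without pair 2) genes, 4 to 6 members and 9 to 47 list genes, with 2194 genes and 12 list genes without pair 1. With nothing else changed, the pair number block changed the calls of MYC, NCL, NPM1, NOP58 and CAD. It also called NOP56 after division by the total (adjusted p 0.0313) and DKC1 without pair 2 (0.0492). For the difference between pair numbers, 2533 genes passed without a filter and, chosen after the data were seen, 1573 without pair 1.

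Log2 fold changes near 0 turned sign under some settings. That of MAX was -0.04 after division by the total, with and without the block, and -0.01 without lyophilized sample 2. Without control 1, NCL was at -0.07, FBL at 0.02, DKC1 at -0.06 and ODC1 at -0.08. FBL was at 0.15 with the block and GC correction and at 0.03 without pair 1, with and without the block. NOP56 was at 0.12 without control 2 and 0.13 without lyophilized sample 1. DKC1 was at -0.04 with the block and GC correction, and without lyophilized sample 2 DKC1 was at -0.00 and ODC1 at -0.11. ODC1 was at -0.02 after quantile normalization, with and without the block. With 1 sample or pair left out the values ran from -0.34 to -0.09 for MYC, 0.22 to 0.50 for NPM1, 0.09 to 0.58 for NOP58, -0.80 to -0.44 for CAD, -0.01 to 0.07 for MAX, -0.07 to 0.53 for NCL, -0.08 to 0.03 for FBL, -0.32 to 0.13 for NOP56, -0.06 to 0.27 for DKC1 and -0.11 to 0.24 for ODC1. The cause was not tested. A sample left out leaves 2 against 3 samples, and a pair left out 2 against 2. With the block, a pair left out leaves few degrees of freedom, so these p-values rest largely on the variances of other genes. Depth could not be taken from FPKM.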
